A study of Capra hircus with 9 samples.

Results

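The genes described here are 134 solute carriers (SLC genes) that move inorganic ions, metals and organic solutes across membranes, in uterine samples of Liaoning Cashmere goats. They were chosen by name: of 25671 gene rows, 310 were named SLC, a number, A and a number. Leaving out the families of amino acid, hexose, urea and mitochondrial carriers (SLC1, SLC2, SLC3, SLC5, SLC6, SLC7, SLC14, SLC25, SLC36, SLC38 and SLC43) left 188 rows, and 134 of these, from 36 families, had at least 10 counts in at least 3 of the 9 libraries. The 54 rows under that count rule include 12 with 0 counts in all 9 libraries, and the one among the 54 with the highest total was SLC27A2 with 82 counts.

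Solute carriers are membrane proteins that let a substrate down its gradient or couple it to sodium, protons or another solute. Numbered families are built on shared sequence, so members of a family often carry related substrates but sit in different membranes, apical or basolateral, plasma or lysosomal. In the uterus of ruminants, the endometrial epithelium and its glands use such carriers to load the uterine lumen with ions, phosphate, metals, vitamins and metabolites before the conceptus attaches.

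The study compared 3 time points with 3 samples each, day 6, day 16 and day 19, which the labels call peri-implantation, and names no treatment or genotype. Which event the days run from is not stated. The tissue field reads uterus, while the series title speaks of endometrial epithelium and the treatment protocol of testis. All samples come from the same breed, and no label gives an age, pen or donor, so the 3 samples of a day may or may not be 3 animals, and every p-value below measures the spread between samples, part of which may be technical. Poly(A) RNA was counted per gene without correction for gene length, so a gene's level is compared between days and never with the level of another gene. Levels are TMM-normalized CPM, meaning counts scaled to a common library total.

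The libraries held 8712751 to 11074693 counts. Epithelial markers were present: 18 of 20 listed genes were in the table and tested, and their summed level lay between 1889.8 and 2035.1 CPM at day 6, 2320.4 and 2485.5 at day 16, and 1690.7 and 2733.7 at day 19. Stromal markers (13 of 13 tested) summed to 31774.1 to 35095.6, 20599.8 to 24819.8 and 21832.9 to 31202.6 CPM, and smooth muscle markers (12 of 12) to 10153.8 to 36261.7, 22678.7 to 23971.9 and 29323.6 to 46821.0 CPM on the same days, so the libraries were not epithelium alone. Among epithelial markers 3 rose and 2 fell at day 16 against day 6, and 3 rose and 4 fell at day 19 against day 6 (edgeR). Stromal markers had 1 lower at day 16, and 1 higher and 1 lower at day 19, and smooth muscle markers had 0 called at day 16 (0 at an unadjusted p under 0.05) and 2 higher at day 19, each against day 6. The part of these markers in the carriers' changes was not tested. Of the testis germ cell list, 2 of 14 genes were tested and SYCP3, TNP1, ODF1, ACRV1 and SPATA19 were at 0 throughout. The sum of macrophage markers lay between 340.8 and 760.1 CPM at day 6, 588.0 and 900.1 at day 16, and 1032.1 and 1659.3 at day 19. Of the macrophage list, with no gene at 0, 8 of 11 tested genes rose and 1 fell at day 19 against day 6. Of other cell type lists, 12 ciliated cell genes (29.5 to 123.3 CPM in sum over all libraries), 9 endothelial (729.7 to 1441.2) and 11 lymphocyte genes (81.1 to 434.2) were tested, with 1 gene called at day 19 against day 6 on each list, and 3 of 18 trophoblast and 0 of 11 erythroid genes were tested (ALAS2, EPB42 and HBM at 0). In bulk RNA, fewer cells of a type and less RNA per cell cannot be told apart.

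Day 19 replicate 1 stood apart from the other day 19 libraries. Over all genes its rank correlation was 0.894 and 0.897 with the other day 19 libraries and 0.945 to 0.963 with the day 16 libraries. Of the 133 carriers tested, 26 (19.5%) were more than 2 times as high there as in both other day 19 libraries, against 15.6% of all genes, and 10 (7.52%) were under 0.5 times both, against 12.4% of all genes. Results that involve day 19 are therefore given with and without that library. Of the 134 carriers, 133 passed the low count filter of the test. The exception was SLC10A6, a sodium-dependent carrier of sulfated steroids, with 4 day 6, 25 day 16 and 13 day 19 counts.

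At day 16, 14 carriers rose and 10 fell against day 6 (edgeR quasi-likelihood test, p adjusted over all 16098 genes after Benjamini and Hochberg, threshold 0.05). Where no other tool or fit is named, a gene is said to be called, or not called, by this test with all 9 libraries. These 24 are 18.0% of the carriers tested, while 8.86% of all genes were called, 5.12% higher and 3.74% lower. At day 19, 16 carriers rose and 25 fell against day 6, together 30.8% of the carriers, with 22.9% of all genes called, 12.7% higher and 10.2% lower. Day 19 against day 16 gave 1 carrier, SLC24A4, which fell, where 1.20% of all genes were called, 0.516% higher and 0.683% lower. An F test among the 3 days called 38 carriers (28.6%), where it called 19.6% of all genes.

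Without day 19 replicate 1, edgeR called 35 carriers for day 16 against day 6 (15 higher and 20 lower, where 10.7% and 9.67% of all genes were higher and lower, 20.4% together). For day 19 against day 16 it then called 55 (14 higher and 41 lower, all genes 21.6% and 23.1%, 44.7% together), for day 19 against day 6 it called 74 (24 higher and 50 lower, all genes 27.2% and 27.0%, 54.2% together), and among the 3 days 77 (all genes 59.1%). The 41 carriers called at day 19 against day 6 with all libraries were all among the 74. DESeq2 with all libraries called 30 carriers for day 16 against day 6 (17 higher and 13 lower, all genes 6.99% and 5.37%, 12.4% together), 10 for day 19 against day 16 (all lower, all genes 5.70% higher and 4.79% lower, 10.5% together), 51 for day 19 against day 6 (21 higher and 30 lower, all genes 14.7% and 12.3%, 27.0% together) and 46 among the 3 days (27.7%). Limma voom with sample weights and all libraries called 42 carriers for day 16 against day 6 (17 higher and 25 lower, all genes 12.6% and 11%, 23.7% together), 56 for day 19 against day 16 (14 higher and 42 lower, all genes 22.2% and 23.5%, 45.7% together), 78 for day 19 against day 6 (27 higher and 51 lower, all genes 29.6% and 29.0%, 58.6% together) and 86 among the 3 days (all genes 64.1%).

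The median log2 fold change of the carriers was -0.05 at day 16 against day 6, -0.20 at day 19 against day 16 and -0.26 at day 19 against day 6, with medians over all genes of 0.0, 0.01 and 0.02. In 40 carriers (30.1%) every day 19 library was below every day 6 library, where 18.9% of all genes were so, and in 22 (16.5%) every one was above, where 19.6% were so. For day 16 against day 6, 33 carriers (24.8%) were lower without overlap, against 18.8% of all genes, and 20 (15.0%) higher, against 19.9%.

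**Figure D1:**
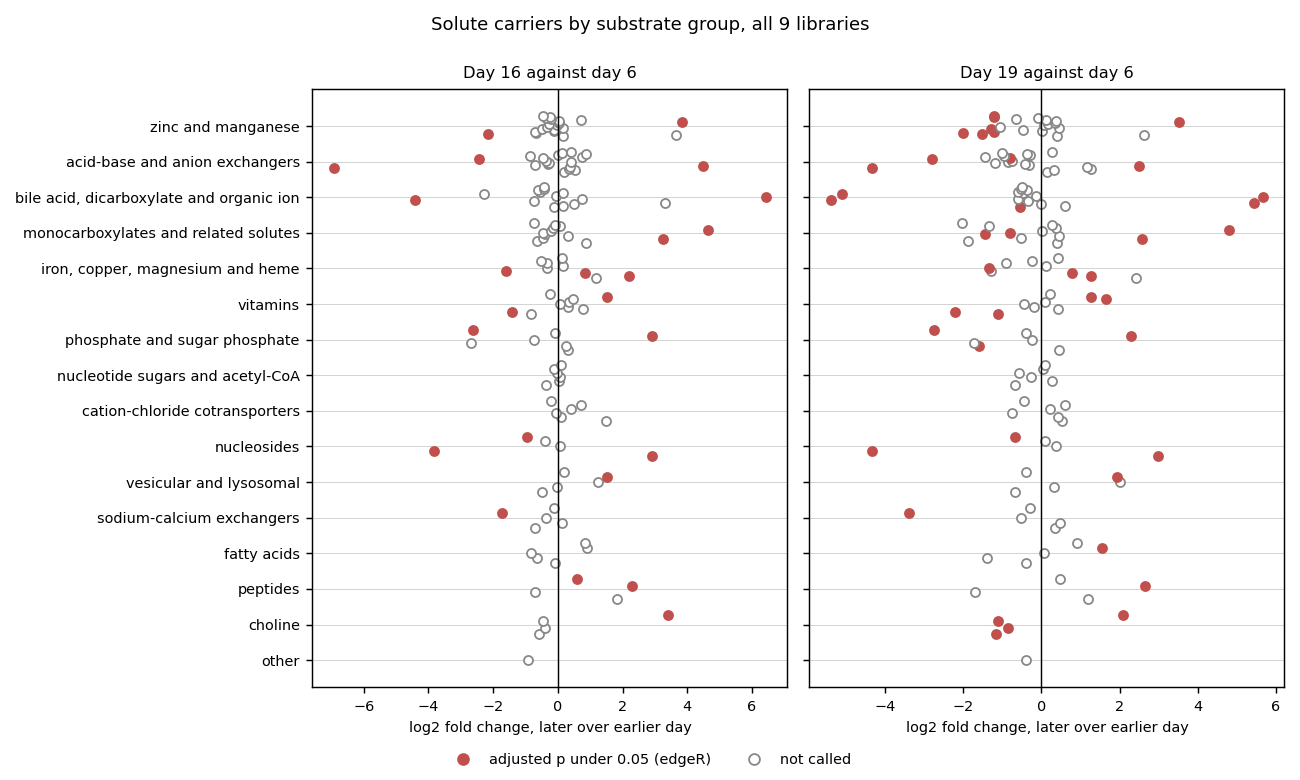
Log2 fold change of each of the 133 carriers tested, by substrate group (rows), at day 16 against day 6 (left) and at day 19 against day 6 (right), from the fit to all 9 libraries. Filled points are the 24 and 41 carriers with adjusted p under 0.05. The nucleoside, bile acid and organic ion, and acid-base groups hold called carriers on both sides of 0 in both panels. So do the phosphate, vitamin, zinc and manganese, and iron and copper groups. The values beyond 5 in size include genes with few counts on a day, whose fitted change depends on the prior count.

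In some families, called carriers lay on opposite sides of 0. At day 16 against day 6, 18 of 36 families had a called member, 8 with higher calls alone, 6 with lower calls alone and 4 with both (SLC26, SLC28, SLC31 and SLC37). At day 19 against day 6, 23 families had a called member, 6 with higher calls alone, 9 with lower calls alone and 8 with both (SLC13, SLC16, SLC22, SLC26, SLC28, SLC37, SLC39 and SLC44). More than 1 call, all on the same side, was seen in SLC15 and SLC16 at day 16, and in SLC19, SLC30 and SLC46 at day 19. The other families with calls on 1 side had 1 called member, which cannot split. How often calls would split by the shares higher and lower alone was not tested.

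Among the nucleoside carriers, the concentrative carrier SLC28A3 fell and its relative SLC28A1 rose. SLC28A3, which takes up purine and pyrimidine nucleosides with sodium or protons, had 148.5, 147.0 and 149.8 CPM at day 6, 9.79, 9.91 and 11.5 at day 16, and 8.84, 7.99 and 5.29 at day 19. The day 6 libraries lay far above all 6 later ones and hardly differed among themselves. It was 14.2-fold lower at day 16 than at day 6 (log2 -3.83, SE 0.22, adjusted p 9.13e-05) and 20.1-fold lower at day 19 than at day 6 (log2 -4.33, SE 0.22, adjusted p 6.53e-05; edgeR). SLC28A1, which prefers pyrimidine nucleosides, had 1.76, 2.06 and 1.27 CPM at day 6, 17.8, 12.5 and 7.84 at day 16, and 9.71, 16.7 and 14.3 at day 19. Every later library was above every day 6 library. SLC28A1 was 7.45-fold higher at day 16 than at day 6 (log2 2.90, SE 0.39, adjusted p 0.00184) and 7.95-fold higher at day 19 than at day 6 (log2 2.99, SE 0.39, adjusted p 0.000943; edgeR).

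The equilibrative carriers of the same group had smaller log2 changes. SLC29A3, a nucleoside carrier of lysosomes, averaged 23.2 ± 1.73 CPM at day 16, against 45.1 ± 7.93 at day 6 (n = 3 each, SD), a log2 change of -0.96 (SE 0.19), and 28.4 ± 1.78 at day 19, -0.67 against day 6 (SE 0.18). The edgeR adjusted p was 0.0114 for day 16 and 0.0281 for day 19. Its day 16 call was lost on dropping day 6 replicate 1, day 16 replicate 1 or day 16 replicate 3 (adjusted p 0.0510 to 0.0546), and its day 19 call without day 6 replicates 1 or 2 or day 19 replicates 2 or 3 (0.0804 to 0.108). SLC29A1, the main equilibrative carrier of the plasma membrane, had log2 changes of 0.05 at day 16 and 0.38 at day 19 against day 6, with edgeR adjusted p of 0.935 and 0.171. Limma voom called it higher at day 19 than at day 16 and at day 6. Its levels were 31.7, 25.7 and 33.0 CPM at day 6, and 33.1, 43.4 and 40.8 at day 19. In all, 1 of 5 nucleoside carriers rose and 2 fell at day 16 against day 6, and 1 rose and 2 fell at day 19 against day 6.

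Among carriers of dicarboxylates and organic ions, a citrate carrier and an organic cation carrier fell, and a dicarboxylate and a carnitine carrier rose. SLC13A5, which takes up citrate with sodium, had 562.8, 593.7 and 611.5 CPM at day 6, 29.2, 41.3 and 12.1 at day 16, and 33.9, 3.89 and 4.44 at day 19. All 6 later libraries were below the day 6 range, and day 19 replicate 1 was several times the other day 19 libraries. The level was 21.4-fold lower at day 16 than at day 6 (log2 -4.42, SE 0.84, adjusted p 0.0107; edgeR). That call was lost on dropping day 16 replicate 1 (adjusted p 0.0546), and DESeq2 gave no adjusted p for this gene. At day 19 SLC13A5 was 41.7-fold lower than at day 6 (log2 -5.38, SE 0.88, edgeR adjusted p 0.00289), and without day 19 replicate 1 the log2 change was -7.13 (adjusted p 4.16e-05).

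SLC13A2, a kidney and gut carrier of succinate and citrate in mammals, had 0.650, 0.206 and 0.195 CPM at day 6, 1.58, 9.23 and 0.270 at day 16, and 4.86, 35.2 and 7.51 at day 19. Levels at day 19 spread widely but lay above all day 6 libraries, while day 16 overlapped with day 6. At day 19 it was 43.2-fold higher than at day 6 (log2 5.43, SE 1.33, edgeR adjusted p 0.0178), and at day 16 the log2 change of 3.31 was not called by edgeR (adjusted p 0.181) but was by DESeq2 (0.019). The day 19 call was lost on dropping day 6 replicate 1 (log2 6.20), 2 or 3 or day 19 replicate 2 (log2 4.08), with adjusted p of 0.0517 to 0.0726.

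SLC22A16, a carnitine carrier, was close to absent at day 6. It had 0.278, 0.412 and 0.195 CPM at day 6 (9 counts in all), 34.2, 20 and 24.5 at day 16, and 14.9, 20.8 and 10.6 at day 19. All later libraries were far above day 6. The rise was 85.9-fold at day 16 against day 6 (log2 6.43, SE 0.44, adjusted p 0.000122) and 50.4-fold at day 19 against day 6 (log2 5.66, SE 0.43, adjusted p 8.85e-05; edgeR), and it held with each of the 9 libraries left out. SLC22A5, the high-affinity carnitine carrier, had log2 changes of -0.42 at day 16 and -0.53 at day 19 against day 6 and was not called (adjusted p 0.324 and 0.108).

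SLC22A2, an organic cation carrier, went the other way. It had 2 counts at day 19 and 84 at day 6, 40.7-fold lower by counts (95% interval 10.9 to 341.3, counting error only), with an edgeR adjusted p of 0.0206. The call was lost on dropping day 6 replicate 3 (adjusted p 0.0755, log2 -4.39) or day 19 replicate 2 (0.0711), and the fitted log2 change of -5.10 became -7.78 without day 19 replicate 3. SLC10A3, an orphan member of the bile acid carrier family, averaged 29.5 ± 2.49 CPM at day 19, against 43.1 ± 4.80 at day 6 (n = 3 each, SD), a log2 change of -0.54 (SE 0.16, edgeR adjusted p 0.0405). That call was lost with any library but day 19 replicate 1 left out (adjusted p 0.0623 to 0.133). Of the 15 tested members of this group, 1 rose and 1 fell at day 16 against day 6, and 2 rose and 3 fell at day 19 against day 6. In the SLCO family of organic anion carriers, listed for comparison, 1 of 6 tested genes, the prostaglandin carrier SLCO2A1, rose at day 16 and at day 19 against day 6 (log2 1.88 and 1.14, edgeR adjusted p 0.00664 and 0.0298).

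**Figure D2:**
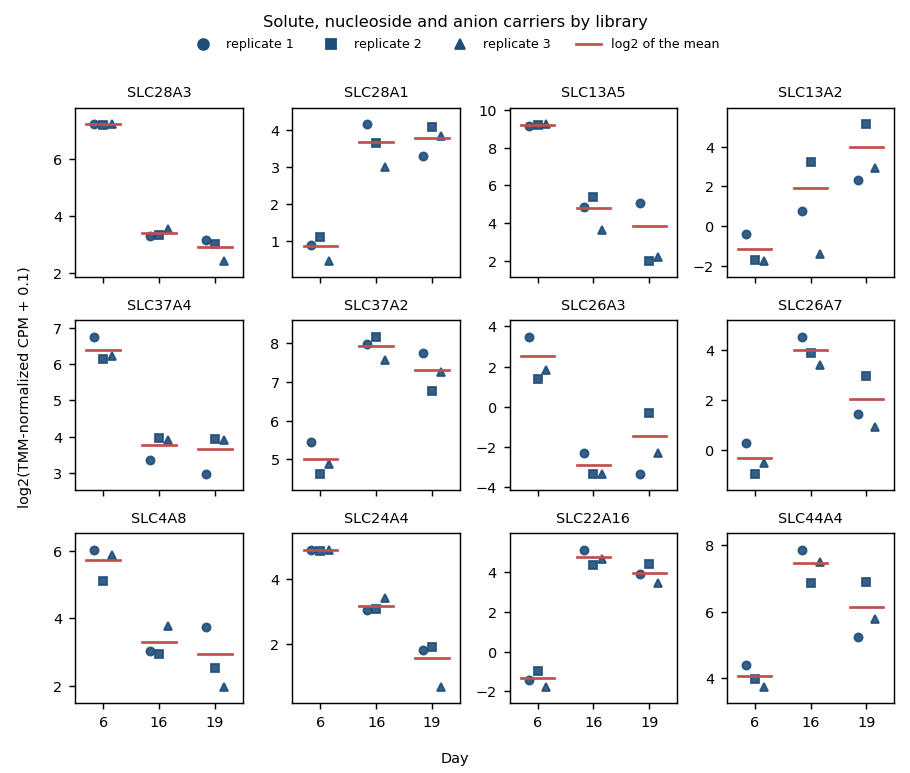
Level of 12 carriers in each library, as log2(TMM-normalized CPM + 0.1), by day. Symbols are replicates 1 to 3, the horizontal line is the log2 of the day's mean CPM plus 0.1, and each panel has its own axis range. SLC28A3, SLC13A5, SLC37A4, SLC4A8 and SLC24A4 were lower at both later days than at day 6, and SLC28A1, SLC37A2, SLC26A7, SLC22A16 and SLC44A4 were higher.

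The sugar phosphate exchangers of the SLC37 family also split. SLC37A4 carries glucose 6-phosphate into the endoplasmic reticulum, where it is cut to glucose. Its levels were 107.2, 70.3 and 73.7 CPM at day 6, 10.1, 15.4 and 15.0 at day 16, and 7.77, 15.1 and 14.8 at day 19. No later library came near the day 6 range. SLC37A4 was 6.21-fold lower at day 16 than at day 6 (log2 -2.63, SE 0.31, adjusted p 0.00101) and 6.67-fold lower at day 19 than at day 6 (log2 -2.74, SE 0.32, adjusted p 0.000551; edgeR). SLC37A2, an exchanger of the same membrane that is abundant in macrophages, had 43.2, 24.6 and 29.2 CPM at day 6, 254.4, 286.9 and 188.2 at day 16, and 215.4, 109.3 and 152.9 at day 19. The days did not overlap between day 6 and either later day. It was 7.51-fold higher at day 16 (log2 2.91, SE 0.32, adjusted p 0.000666) and 4.92-fold higher at day 19 (log2 2.30, SE 0.31, adjusted p 0.00121) than at day 6 by edgeR. In the same libraries 1 of 11 macrophage markers rose at day 16 against day 6 (CD14) and 8 rose at day 19, and their part in the SLC37A2 result was not tested.

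Of the phosphate carriers proper, SLC34A2, the sodium-phosphate cotransporter of secretory and absorptive epithelia, had 364.9, 389.4 and 278.0 CPM at day 6, 666.8, 231.1 and 333.3 at day 16, and 71.2, 146.8 and 123.3 at day 19. Day 19 was below both earlier days in every library. It was 3.02-fold lower at day 19 than at day 6 (log2 -1.60, SE 0.40, edgeR adjusted p 0.0206), a call lost on dropping day 6 replicate 1, day 6 replicate 2 or day 19 replicate 3 (adjusted p 0.0561 to 0.0652). Against day 16 its log2 change of -1.85 had an edgeR adjusted p of 0.0593, and of 0.0162 without day 19 replicate 1 (log2 -1.59). DESeq2 and limma voom called that fall with all libraries. SLC20A1, a widely expressed phosphate carrier, had log2 changes of 0.32 at day 16 and 0.44 at day 19 against day 6 (adjusted p 0.443 and 0.144). In the group of 7, 1 rose and 1 fell at day 16, and 1 rose and 2 fell at day 19, each against day 6.

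Among 19 acid-base and anion exchangers, 1 rose and 2 fell at day 16 against day 6. SLC26A7, a chloride and bicarbonate exchanger, had 1.11, 0.412 and 0.585 CPM at day 6, 23.1, 14.9 and 10.5 at day 16, and 2.62, 7.69 and 1.80 at day 19. The 3 days did not overlap, with day 16 at the top. It was 22.4-fold higher at day 16 than at day 6 (log2 4.49, SE 0.65, adjusted p 0.00279) and 5.61-fold higher at day 19 than at day 6 (log2 2.49, SE 0.64, adjusted p 0.0219; edgeR). The day 19 call was lost on dropping day 6 replicate 2 or 3 or day 19 replicate 2, the last with a log2 change of 1.63 (adjusted p 0.0721 to 0.0815).

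SLC26A3, the chloride and bicarbonate exchanger known from the gut, had 11, 2.47 and 3.51 CPM at day 6 (178 counts) and 1 count in all at day 16, 170.1-fold lower by counts (95% interval 30.1 to 6756.8, counting error only), with an edgeR adjusted p of 0.00985. At day 19 it had 8 counts, and its level was 20.2-fold lower than at day 6 (edgeR adjusted p 0.0138). Leaving out day 16 replicate 1, which held the 1 count, moved the fitted day 16 change from log2 -6.92 to -8.83 and its adjusted p to 0.0503, and without day 6 replicate 1 the change was -6.00 (adjusted p 0.0340). For day 19 against day 6 the fitted log2 change was -4.33, with -3.43 without day 6 replicate 1 (adjusted p 0.0543), -3.75 without day 19 replicate 1 (0.00813) and -6.48 without day 19 replicate 2 (0.0105).

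SLC4A8, a sodium-driven chloride and bicarbonate exchanger, had 64.9, 33.9 and 58.4 CPM at day 6, 8, 7.63 and 13.4 at day 16, and 13.3, 5.59 and 3.81 at day 19. All later libraries were below all day 6 libraries. It was 5.39-fold lower at day 16 than at day 6 (log2 -2.43, SE 0.47, adjusted p 0.0116) and 6.90-fold lower at day 19 than at day 6 (log2 -2.79, SE 0.48, adjusted p 0.00368; edgeR). The day 16 call was lost on dropping day 16 replicate 1 (adjusted p 0.0614) or 2 (0.0609), and without day 19 replicate 1 the day 19 change was -3.46 (adjusted p 0.000135).

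The bicarbonate cotransporters SLC4A4 and SLC4A7 and the apical sodium-proton exchanger SLC9A2 were not called by edgeR or DESeq2 in any comparison with all 9 libraries (edgeR adjusted p 0.124 to 0.861). Limma voom called SLC4A7 lower at day 19 than at day 16 and at day 6, and SLC4A4 lower at day 19 than at day 6. With day 19 replicate 1 left out, SLC4A7 was lower at day 19 than at day 6 (log2 -1.50, adjusted p 0.000169) and than at day 16 (log2 -1.13, adjusted p 0.00111), and SLC4A4 likewise (log2 -1.83, adjusted p 0.0115, and log2 -1.57, adjusted p 0.0278; edgeR). SLC4A7 stood at 36.8 CPM in day 19 replicate 1 and at 11.6 and 12.6 CPM in the other day 19 libraries. Carbonic anhydrase CA2, which supplies bicarbonate, fell to 185.2 CPM at day 16, against 699.5 at day 6 (log2 -1.92, SE 0.34, edgeR adjusted p 0.00799), and was the only one of 7 tested carbonic anhydrases called there. At day 19 CA2 and CA5B fell against day 6 (log2 -1.75 and -1.56, edgeR adjusted p 0.00658 and 0.0189). Of 6 scaffold and regulator genes, none was called at day 16 by edgeR, where 4 had an unadjusted p under 0.05, while DESeq2 called 2 and limma voom 5, and CHP1 and AHCYL1 fell at day 19 against day 6 (log2 -0.60 and -1.04, adjusted p 0.0452 and 0.0215).

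The sodium-calcium exchangers had 1 called member, SLC24A4, which couples calcium export to sodium and potassium. It had 30, 29.6 and 30.2 CPM at day 6, 8.11, 8.31 and 10.5 at day 16, and 3.40, 3.59 and 1.48 at day 19. Each day lay wholly below the one before. SLC24A4 was 3.33-fold lower at day 16 than at day 6 (log2 -1.74, SE 0.29, adjusted p 0.00587), 3.16-fold lower at day 19 than at day 16 (log2 -1.66, SE 0.31, adjusted p 0.0468) and 10.5-fold lower at day 19 than at day 6 (log2 -3.39, SE 0.32, adjusted p 0.000217; edgeR). The call between day 19 and day 16 was lost when any library but day 19 replicate 1 was left out (adjusted p 0.0797 to 0.175), and without day 19 replicate 1 it stood at log2 -1.80 with an adjusted p of 0.00163.

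SLC8A1, the plasma membrane sodium-calcium exchanger, had 35.6, 42.9 and 38 CPM at day 6, 37.9, 41.5 and 28.9 at day 16, and 55.3, 18.2 and 22.3 at day 19. It was not called by edgeR with all libraries (log2 -0.28 at day 19 against day 6, adjusted p 0.606), though limma voom called it lower, and without day 19 replicate 1 the same change was -0.93 (edgeR adjusted p 0.00251). Of 9 tested calcium handling genes, the apical calcium channel TRPV6 rose at day 16, with 12.2 CPM against 0.785 at day 6 (log2 3.94, SE 0.43, edgeR adjusted p 0.000657), and 0 fell. TRPV6 (log2 4.09, adjusted p 0.000372) and the calcium pump ATP2C2 (log2 3.58, adjusted p 0.0248) rose at day 19 against day 6, ATP2C2 not without day 19 replicate 1 (log2 2.01, adjusted p 0.0531; edgeR). The calcium-binding protein S100G, which lay between 82.0 and 194.0 CPM at day 6, 239.6 and 349.2 at day 16, and 91.3 and 763.6 at day 19, was not called by edgeR (adjusted p 0.309 at day 16 and 0.0607 at day 19 against day 6), while DESeq2 called it at day 19 and limma voom at both days.

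Of 6 cation-chloride cotransporters, 0 were called by edgeR at day 16 or day 19 against day 6, where 1 and 2 had an unadjusted p under 0.05, while DESeq2 called 1 in each and limma voom 1 and 3. SLC12A2, the sodium-potassium-chloride cotransporter that loads secretory epithelia with chloride, had 12.3, 21.4 and 18.3 CPM at day 6, 50.3, 46.8 and 48.2 at day 16, and 48.1, 14.7 and 12.6 at day 19. All day 16 libraries were above all day 6 libraries, and day 19 replicate 1 lay with day 16 while the other day 19 libraries lay with day 6. The day 16 change of log2 1.48 had an edgeR adjusted p of 0.0888, and of 0.000733 without day 19 replicate 1, while DESeq2 gave 0.0198 with all libraries. In the fit that leaves out day 19 replicate 1, SLC12A2 was also lower at day 19 than at day 16 (log2 -1.81, edgeR adjusted p 0.000242). The kinase STK39, which activates this cotransporter, and its upstream kinase WNK2 fell at day 16 against day 6 (log2 -0.99 and -1.72, edgeR adjusted p 0.0273 and 0.00101). The other kinases listed were not called there. OXSR1 had 52.5, 53.5 and 52.6 CPM at day 6, and 79.4, 73.4 and 60.9 at day 16. WNK1 had 234.8, 233.7 and 213.5 CPM at day 6, and 300.7, 278.0 and 273.5 at day 16. Both were thus higher at day 16 without overlap, while WNK3 and WNK4 overlapped between these days.

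Subunits of the sodium pump, whose gradient drives many of these carriers, fell in part. ATP1B1, a beta subunit, had 176.9 CPM at day 16 and 317.6 at day 6 (log2 -0.84, edgeR adjusted p 0.0234), while the pump modulator FXYD4 rose (log2 3.74, adjusted p 0.0132). At day 19 against day 6 the beta subunits ATP1B1 (log2 -1.51, adjusted p 0.000890) and ATP1B2 (log2 -2.78, adjusted p 0.00137) fell, as did WNK2 and STK39 (log2 -1.41 and -1.37), and FXYD4 rose (log2 4.23, adjusted p 0.00450). Of the 12 genes tested on that list, 1 rose and 3 fell at day 16, and 1 rose and 5 fell at day 19, each against day 6.

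Iron carriers changed at entry and exit. SLC11A2 (DMT1) takes up ferrous iron with protons at the apical membrane and from endosomes. It had 101.9, 76.3 and 84.0 CPM at day 6, 504.5, 407.2 and 303.3 at day 16, and 183.4, 264.1 and 183.2 at day 19. The 3 days did not overlap, with day 16 at the top and day 19 between. It was 4.63-fold higher at day 16 (log2 2.21, SE 0.25, adjusted p 0.000816) and 2.40-fold higher at day 19 (log2 1.27, SE 0.25, adjusted p 0.00682) than at day 6 by edgeR. Its log2 change at day 19 against day 16 was -0.95, with an edgeR adjusted p of 0.0802, 0.0198 without day 19 replicate 1 and 0.00916 by DESeq2.

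SLC40A1 (ferroportin), the exporter of iron from cells, had 242.0, 135.0 and 175.4 CPM at day 6, 109.5, 125.2 and 197.8 at day 16, and 81.5, 68.2 and 67.7 at day 19. Day 19 lay below every earlier library, while day 16 overlapped with day 6. It was 2.54-fold lower at day 19 than at day 6 (log2 -1.35, SE 0.28, edgeR adjusted p 0.00900), a call kept with each library left out, and at day 16 it was not called (log2 -0.35, adjusted p 0.560). SLC11A1, an iron and manganese carrier of phagocytes, summed to 19 counts over the day 6, 41 over the day 16 and 103 over the day 19 libraries, and its log2 change of 2.43 at day 19 against day 6 had an edgeR adjusted p of 0.0800. DESeq2 and limma voom called that rise. The macrophage marker sum was also highest at day 19, and its part in the SLC11A1 change was not tested.

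Of 15 tested iron handling genes, 3 rose and 3 fell at day 16 against day 6. The ferroxidase HEPH fell (log2 -1.56, adjusted p 0.00220) and the ferroxidase CP rose (log2 1.74, adjusted p 0.0342; edgeR). CP stood at 1678.5 CPM in day 16 replicate 2 and at 588.4 and 471.5 in the other day 16 libraries, with 248.7 to 302.8 at day 6. The endosomal ferrireductases STEAP2 and STEAP3 went apart (log2 -1.11 and 1.21, edgeR adjusted p 0.0339 and 0.0127), heme oxygenase HMOX1 rose (log2 0.83, adjusted p 0.0448) and the iron regulatory protein ACO1 fell (log2 -0.81, adjusted p 0.0108). ACO1 was lower again at day 19 than at day 16 (log2 -0.84, edgeR adjusted p 0.0461), with 134.6, 146.8 and 125.5 CPM at day 6, 73.3, 78.4 and 80.4 at day 16, and 48.8, 38.5 and 42.1 at day 19. At day 19 against day 6, 2 of the 15 rose (STEAP3 and HMOX1) and 4 fell (HEPH, STEAP2, IREB2 and ACO1).

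The copper carriers of the SLC31 family moved in opposite directions. SLC31A1 (CTR1), which takes copper into cells, had 63.5, 59.3 and 68.1 CPM at day 6, 114.8, 107.4 and 116.7 at day 16, and 118.1, 84.2 and 124.5 at day 19. Every later library was above day 6. It was 1.78-fold higher at day 16 (log2 0.83, SE 0.18, adjusted p 0.0192) and 1.71-fold higher at day 19 (log2 0.78, SE 0.18, adjusted p 0.0140) than at day 6 by edgeR. SLC31A2 (CTR2), found on lysosomes and late endosomes, had 104.4, 61.1 and 72.8 CPM at day 6, 24.6, 35.9 and 18.8 at day 16, and 14.3, 40.6 and 42.9 at day 19. It was 3.01-fold lower at day 16 than at day 6 (log2 -1.59, SE 0.42, edgeR adjusted p 0.0446), and its day 19 change of -1.28 had an adjusted p of 0.0507, or 0.0263 without day 19 replicate 1. DESeq2 and limma voom called that day 19 fall with all libraries. The day 16 call of SLC31A1 was lost on dropping any one day 6 or day 16 library (adjusted p 0.0581 to 0.0936), and its day 19 call without day 6 replicate 1 or 2 (0.0537 and 0.0621). The day 16 edgeR call of SLC31A2 was lost with any library but day 19 replicate 1 left out (adjusted p 0.0501 to 0.152).

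Of 9 iron, copper, magnesium and heme carriers, 2 rose and 1 fell at day 16, and 2 rose and 1 fell at day 19, against day 6. SLC41A2, a magnesium carrier, was the SLC41 member with the smallest p among the 3 days. Its log2 change of -0.91 at day 19 against day 6 had an edgeR adjusted p of 0.0535, while DESeq2 and limma voom called it. Of 7 tested zinc and copper handling genes, 0 were called at day 16 against day 6 by edgeR, with 1 at an unadjusted p under 0.05, 1 called by DESeq2 and 2 by limma voom, and the copper pump ATP7B fell at day 19 (log2 -1.94, adjusted p 0.0234).

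**Figure D3:**
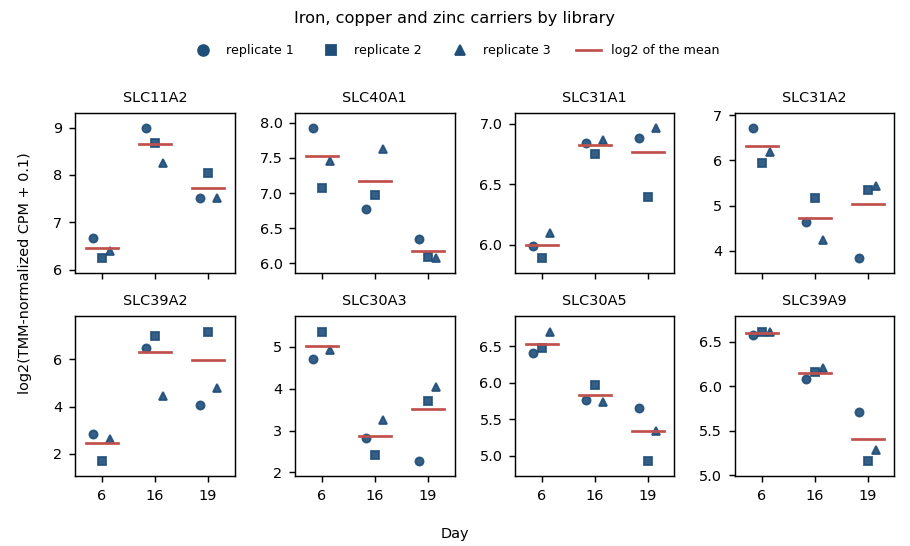
Level of 8 iron, copper and zinc carriers in each library, as log2(TMM-normalized CPM + 0.1), by day. Symbols are replicates 1 to 3, the horizontal line is the log2 of the day's mean CPM plus 0.1, and each panel has its own axis range. SLC11A2 peaked at day 16, SLC40A1, SLC30A5 and SLC39A9 were lowest at day 19, and SLC31A1 and SLC31A2 lay on opposite sides of their day 6 levels.

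The zinc and manganese carriers fall into the SLC30 family (ZnT), which moves zinc out of the cytosol, and the SLC39 family (ZIP), which moves it in. Of 20 members, 1 rose and 1 fell at day 16, and 1 rose and 6 fell at day 19, against day 6. SLC39A2 (ZIP2), a plasma membrane importer, rose at both. It had 7.05, 3.19 and 6.04 CPM at day 6, 88.5, 125.4 and 21.7 at day 16, and 16.9, 143.1 and 27.4 at day 19. All later libraries were above day 6, with a wide spread within each later day. It was 14.4-fold higher at day 16 (log2 3.85, SE 0.91, adjusted p 0.0293) and 11.5-fold higher at day 19 (log2 3.52, SE 0.90, adjusted p 0.0213) than at day 6 by edgeR. The day 16 call was lost on dropping any one day 6 library or day 16 replicate 1 or 2 (adjusted p 0.0792 to 0.121), and the day 19 call without any one day 6 library or day 19 replicate 2 (0.0629 to 0.0806). Without day 19 replicate 2 the day 19 change was log2 2.03.

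SLC30A3 (ZnT3), which fills synaptic vesicles with zinc in brain, had 26.2, 41.0 and 30 CPM at day 6, 6.95, 5.24 and 9.38 at day 16, and 4.76, 12.9 and 16.3 at day 19. No later library reached the day 6 range. It was 4.49-fold lower at day 16 (log2 -2.17, SE 0.43, adjusted p 0.0129) and 2.86-fold lower at day 19 (log2 -1.52, SE 0.42, adjusted p 0.0280) than at day 6 by edgeR. The day 16 call was lost on dropping day 6 replicate 2 or day 16 replicate 1 or 2 (adjusted p 0.0523 to 0.0642), and the day 19 call without day 6 replicate 2 or 3 or day 19 replicate 2 (0.0631 to 0.0984).

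Among other zinc carriers, SLC30A5, which supplies zinc to enzymes of the secretory pathway, had 84.6, 89.3 and 103.9 CPM at day 6, 54.0, 62.6 and 53.4 at day 16, and 50, 30.4 and 40.5 at day 19, and SLC39A9, a Golgi carrier, had 95.4, 98 and 97.6, then 67.8, 71.5 and 74.0, then 52.1, 35.7 and 38.8 on the same days. In both SLC30A5 and SLC39A9 each day lay wholly below the one before. They were both 2.30-fold lower at day 19 than at day 6 (log2 -1.20 each, SE 0.20 and 0.17, adjusted p 0.00358 and 0.00156; edgeR), and both calls held with each library left out. At day 16 against day 6 the changes were -0.71 and -0.45 with edgeR adjusted p of 0.0611 and 0.157, and without day 19 replicate 1 of 0.00641 and 0.00891. With all libraries, DESeq2 called SLC30A5 there and limma voom called both.

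SLC30A4, an exporter into vesicles that serves milk zinc in mice, was at 9.84, 10.1 and 8.77 CPM at day 6, 6.11, 6.26 and 5.59 at day 16, and 4.76, 1.30 and 1.06 at day 19. It was 4-fold lower at day 19 than at day 6 (log2 -2.0, SE 0.50, edgeR adjusted p 0.0193), and the change was -2.99 without day 19 replicate 1 (adjusted p 3.93e-05). The call was lost on dropping any one day 6 library or day 19 replicate 2 (adjusted p 0.0527 to 0.0610). SLC30A9, named because it was called and not by the naming rule, fell at day 19 against day 6, with a log2 change of -1.28 (edgeR adjusted p 0.0195), a call lost on dropping day 6 replicate 2 or 3 or day 19 replicate 2 or 3 (0.0575 to 0.0678). SLC39A8 (ZIP8), an importer of zinc and manganese, averaged 6.04 ± 1.25 CPM at day 19, against 13.9 ± 5.58 at day 6 (n = 3 each, SD; log2 -1.20, SE 0.36, edgeR adjusted p 0.0382). Its call was lost on dropping any of 6 libraries (day 6 replicates 1 and 3, day 16 replicates 1 and 3, day 19 replicates 2 and 3; adjusted p 0.0554 to 0.135).

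SLC39A14 (ZIP14), an importer of zinc, iron and manganese, turned on 1 library. It had 42.0, 55.9 and 44.7 CPM at day 6, 47.4, 51.0 and 46.6 at day 16, and 108.8, 35.8 and 35.5 at day 19. With all libraries the day 19 change was log2 0.34 against day 6 and 0.31 against day 16, neither called (adjusted p 0.553 and 0.627). It was lower without day 19 replicate 1, by -0.40 against day 6 (edgeR adjusted p 0.0409) and -0.42 against day 16 (0.0387). SLC30A2 (ZnT2), known from mammary gland and placenta, summed to 8 counts over the day 6, 95 over the day 16 and 50 over the day 19 libraries, and its log2 change of 3.64 at day 16 had an adjusted p of 0.0927 by edgeR and 0.0114 by DESeq2. Of the 20, 13 were not called at day 19 against day 6, among them SLC30A6, SLC39A7, SLC39A11 and SLC39A13 (singled out after their values were seen), with log2 changes of 0.02, -0.08, 0.07 and 0.17 (adjusted p 0.964, 0.810, 0.825 and 0.600). SLC30A1, the plasma membrane exporter, was not called (log2 0.15 at day 16 and 0.40 at day 19 against day 6, adjusted p 0.885 and 0.407).

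Of 13 carriers of monocarboxylates and related solutes (SLC16), 2 rose and 0 fell at day 16 against day 6. SLC16A11, a family member tied to lipid metabolism in liver, had 4.64, 1.96 and 1.95 CPM at day 6, 43, 20.4 and 18.0 at day 16, and 6.41, 27.4 and 17.7 at day 19. Both later days were above day 6 in every library. It was 9.44-fold higher at day 16 (log2 3.24, SE 0.61, adjusted p 0.0104) and 5.97-fold higher at day 19 (log2 2.58, SE 0.60, adjusted p 0.0145) than at day 6 by edgeR. Both calls were lost on dropping day 6 replicate 2 (adjusted p 0.0518 at day 16 and 0.0599 at day 19) or day 6 replicate 3 (0.0582 and 0.0630).

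SLC16A4, an orphan member, summed to 1 count over the day 6, 32 over the day 16 and 37 over the day 19 libraries. The ratio of counts was 33.5 for day 16 over day 6 (95% interval 5.60 to 1363.9) and 38.2 for day 19 over day 6 (6.45 to 1549.7), counting error only, with edgeR adjusted p of 0.0267 and 0.0122. The day 16 call was lost on dropping any one day 6 library or day 16 replicate 1 or 2 (adjusted p 0.0636 to 0.112) and the day 19 call without day 6 replicate 1 or 3 (0.0513 and 0.0539). The fitted day 16 change of 4.64 became 6.50 without day 6 replicate 2, which held the 1 count, and 3.94 without day 16 replicate 1. The fitted day 19 change of 4.79 became 6.65 without day 6 replicate 2 (adjusted p 0.0325).

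At day 19 against day 6, 2 of the 13 rose (SLC16A11 and SLC16A4) and 2 fell, SLC16A14 among them. It averaged 5.84 ± 1.47 CPM at day 19, against 15.8 ± 5.40 at day 6 (n = 3 each, SD; log2 -1.43, SE 0.34, edgeR adjusted p 0.0159), a call lost on dropping day 6 replicate 1 or 3 or day 19 replicate 2 or 3 (adjusted p 0.0545 to 0.0626). The lactate carriers SLC16A1 (MCT1) and SLC16A3 (MCT4) were not called by edgeR or DESeq2 in any comparison, with edgeR log2 changes of 0.87 and -0.20 at day 16 and 0.39 and 0.02 at day 19 against day 6 (adjusted p 0.234, 0.877, 0.481 and 0.981). Limma voom called SLC16A1 higher at day 16 than at day 6 and lower at day 19 than at day 16. EMB, a chaperone that brings monocarboxylate carriers to the membrane, had 9.28, 1.96 and 4.09 CPM at day 6, 218.4, 132.2 and 104.3 at day 16, and 27.1, 47.4 and 17.2 at day 19. It was 29.4-fold higher at day 16 (log2 4.88, SE 0.61, adjusted p 0.00136) and 5.94-fold higher at day 19 (log2 2.57, SE 0.57, adjusted p 0.0117) than at day 6 by edgeR. EMB was the only one of 3 tested genes on that list to be called with all libraries, and the other chaperone, BSG, had an adjusted p of 0.322 at day 16. Without day 19 replicate 1, all 3 were called higher at day 19 than at day 6 (edgeR). BSG had 417.9, 356.6 and 377.9 CPM at day 6, and 290.4, 611.1 and 608.8 at day 19.

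All 4 peptide carriers (SLC15) passed the filter, and 2 rose at day 16 against day 6. SLC15A3, a lysosomal carrier of histidine and small peptides found in immune cells, had 35.0, 17.0 and 23.9 CPM at day 6, 108.6, 181.3 and 79.5 at day 16, and 199.2, 138.0 and 142.6 at day 19. Both later days were above day 6. It was 4.86-fold higher at day 16 (log2 2.28, SE 0.36, adjusted p 0.00434) and 6.32-fold higher at day 19 (log2 2.66, SE 0.37, adjusted p 0.00126) than at day 6 by edgeR, and both calls held with each library left out. The macrophage marker sum was likewise highest at day 19, and its part was not tested. SLC15A4, its relative in the same membrane and named because it was called, averaged 60.1 ± 5.11 CPM at day 16, against 40.1 ± 2.49 at day 6 (n = 3 each, SD; log2 0.58, edgeR adjusted p 0.0469), a call lost with any library but day 19 replicate 1 left out (adjusted p 0.0561 to 0.201).

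SLC15A1 (PEPT1), the intestinal carrier of dietary peptides, was all but absent in a pair of day 6 libraries and present in the third. It had 0.278, 81.4 and 0.292 CPM at day 6 (3, 791 and 3 counts), 95, 122.4 and 72.5 at day 16, and 52.8, 77.1 and 56.2 at day 19. Day 6 replicate 2 thus lay within the range of the later days. The log2 change was 1.82 at day 16 and 1.19 at day 19 against day 6, neither called (adjusted p 0.548 for both, edgeR). Limma voom called it higher at both days. Of all 16098 genes, 13 (0.0808%) were more than 10 times as high in day 6 replicate 2 as in both other day 6 libraries, and SLC15A1 had the most counts there. LOC102184958, PCDH15 and LOC102171329 followed with 81, 76 and 24 counts, and the rest had 4 or fewer in that library.

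Among 9 members grouped by family as vitamin carriers, SLC19A2 fell and SLC46A3 rose at both later days against day 6. The fall of SLC19A1 and the rise of SLC46A2 were called at day 19 against day 6 only. SLC19A2, a thiamine carrier, had 91.7, 99.8 and 97.2 CPM at day 6, 29.7, 36.9 and 41.7 at day 16, and 28.5, 17.9 and 16.3 at day 19. Each day lay below the one before. It was 2.66-fold lower at day 16 than at day 6 (log2 -1.41, SE 0.23, adjusted p 0.00555) and 4.61-fold lower at day 19 than at day 6 (log2 -2.20, SE 0.24, adjusted p 0.000440; edgeR). Between day 19 and day 16 the change of -0.79 had an edgeR adjusted p of 0.104, and 0.000682 without day 19 replicate 1 (log2 -1.07). With all libraries, DESeq2 and limma voom called it. SLC19A1, the reduced folate carrier, averaged 7 ± 0.706 CPM at day 19, against 15.0 ± 3.15 at day 6 (n = 3 each, SD; log2 -1.10, SE 0.27, edgeR adjusted p 0.0170), a call lost on dropping day 6 replicate 2 or 3 or day 19 replicate 2 (adjusted p 0.0518 to 0.0783). The second thiamine carrier, SLC19A3, was not called (adjusted p 0.634 at day 16 and 0.685 at day 19 against day 6).

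SLC46A3, a lysosomal member of the folate carrier family, had 10.3, 7.10 and 10 CPM at day 6, 24.4, 24.3 and 30 at day 16, and 28.4, 20.8 and 17.6 at day 19. It was 2.86-fold higher at day 16 (log2 1.52, SE 0.25, adjusted p 0.00498) and 2.43-fold higher at day 19 (log2 1.28, SE 0.25, adjusted p 0.00631) than at day 6 by edgeR, and both calls held with each library left out. SLC46A2 averaged 5 ± 1.41 CPM at day 19, against 1.58 ± 0.657 at day 6 (n = 3 each, SD; log2 1.65, SE 0.41, edgeR adjusted p 0.0194), a call lost on dropping day 6 replicate 2 or 3 or day 19 replicate 2 or 3 (adjusted p 0.0568 to 0.0813). The proton-coupled folate carrier SLC46A1 and the vitamin C carrier SLC23A1 were not called (adjusted p 0.593 and 0.741 at day 16, 0.861 and 0.730 at day 19, against day 6). In the group of 9, 1 rose and 1 fell at day 16, and 2 rose and 2 fell at day 19, against day 6. Of 4 tested vitamin-binding genes, 0 were called by edgeR at day 16, where 3 had an unadjusted p under 0.05, while DESeq2 called 1 and limma voom 2. At day 19 against day 6 the transcobalamin TCN2 rose (log2 0.66, adjusted p 0.0403), and the endocytic receptors LRP2 (log2 -3.25, adjusted p 0.00526) and CUBN (log2 -1.36, adjusted p 0.0468) fell.

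All 4 choline carriers (SLC44) that met the count rule were called at day 19 against day 6, 1 higher and 3 lower, where 22.9% of all genes were called. SLC44A5 did not meet that rule. SLC44A4, which carries choline and, in human colon, thiamine pyrophosphate, had 20.9, 15.8 and 13.3 CPM at day 6, 232.7, 117.3 and 179.6 at day 16, and 37.6, 119.7 and 54.7 at day 19. Both later days were above day 6 in every library, and day 19 overlapped with day 16. It was 10.6-fold higher at day 16 (log2 3.41, SE 0.45, adjusted p 0.00185) and 4.24-fold higher at day 19 (log2 2.09, SE 0.43, adjusted p 0.00908) than at day 6 by edgeR. Without day 19 replicate 2 the day 19 change was 1.48 (adjusted p 0.0195).

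SLC44A1, the widely expressed choline carrier, had 49.5, 56.8 and 75.1 CPM at day 6, 40.8, 38.6 and 41.6 at day 16, and 37.3, 25.1 and 18.3 at day 19. It was 2.25-fold lower at day 19 than at day 6 (log2 -1.17, SE 0.27, edgeR adjusted p 0.0139), a call lost on dropping day 6 replicate 3 (adjusted p 0.0613). SLC44A2, named with SLC44A3 because both were called, had 212.3, 191.2 and 213.1 CPM at day 6, 144.2, 148.9 and 169.7 at day 16, and 105.5, 112.3 and 124.8 at day 19, lower at each day in every library. Its day 19 change against day 6 was log2 -0.85 (SE 0.16, adjusted p 0.00516), and that of SLC44A3 was -1.12 (SE 0.32, adjusted p 0.0333; edgeR). The call of SLC44A3 was lost on dropping any one library but day 16 replicate 1 and day 19 replicate 1 (adjusted p 0.0515 to 0.104).

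Of 5 fatty acid carriers (SLC27), SLC27A5, an acyl-CoA and bile acid ligase of liver, rose at day 19 and 0 were called at day 16 by edgeR or DESeq2, where 2 had an unadjusted p under 0.05 by edgeR and limma voom called 1. SLC27A5 averaged 16.8 ± 6.21 CPM at day 19, against 5.67 ± 0.907 at day 6 (n = 3 each, SD; log2 1.56, SE 0.38, edgeR adjusted p 0.0174), a call lost on dropping day 6 replicate 1 or 2 or day 19 replicate 2 or 3 (adjusted p 0.0550 to 0.0692). SLC27A6 was not called (adjusted p 0.644 at day 16 and 0.405 at day 19 against day 6).

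Among 5 members grouped by family as vesicular and lysosomal, the putative sugar carrier SLC45A3, known as prostein, rose. It was placed there by its family number, not by a known site in the cell. It had 6.31, 5.05 and 6.82 CPM at day 6, 15.8, 16.2 and 20.7 at day 16, and 11, 28.2 and 29.8 at day 19. It was 2.90-fold higher at day 16 (log2 1.53, SE 0.36, adjusted p 0.0283) and 3.78-fold higher at day 19 (log2 1.92, SE 0.36, adjusted p 0.00589) than at day 6 by edgeR. The day 16 call was lost on dropping any one day 6 or day 16 library (adjusted p 0.0691 to 0.119). SLC18A2, the vesicular monoamine carrier, had 17.8, 8.44 and 15.0 CPM at day 6, 60.1, 9.80 and 27.6 at day 16, and 149.8, 11.6 and 5.29 at day 19. Its level in day 19 replicate 1 was far above the other 8 libraries, and its day 19 change of log2 2.01 against day 6 (adjusted p 0.206) was -0.69 without that library (0.462). SLC17A5, the lysosomal sialic acid exporter, had a log2 change of -0.68 at day 19 against day 6 (adjusted p 0.0603 by edgeR, 0.0336 by DESeq2).

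The 6 carriers of nucleotide sugars and acetyl-CoA, which feed glycosylation in the Golgi and endoplasmic reticulum, had 0 called by edgeR in any of the 3 comparisons with all libraries, where 0 had an unadjusted p under 0.05 and DESeq2 also called 0. Limma voom called 2, SLC33A1 and SLC35A3, lower at day 19 than at day 16 and at day 6, and 0 at day 16 against day 6. SLC35A2, the UDP-galactose carrier, had 12.4, 11.3 and 11.1 CPM at day 6, 12.5, 12.9 and 11.1 at day 16, and 10.9, 8.79 and 9.52 at day 19 (log2 0.06 at day 16 and -0.26 at day 19 against day 6, adjusted p 0.917 and 0.362). Once day 19 replicate 1 was left out, SLC35A3, a carrier of UDP-N-acetylglucosamine, and SLC33A1, the acetyl-CoA carrier, were lower at day 19 than at day 6 (log2 -1.0 and -1.30, edgeR adjusted p 0.00530 and 0.000198). SLC33A1 had 36.8 CPM in day 19 replicate 1 and 13.8 and 13.5 in the other day 19 libraries.

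Members of a family were also compared as a ratio within each library, which does not depend on scaling between libraries. The pairs were chosen after their values were seen, so the ratios are a description, and being uncorrected for length they are compared between days alone. The log2 ratio of SLC28A1 to SLC28A3 counts lay between -6.83 and -6.12 at day 6, -0.55 and 0.86 at day 16, and 0.14 and 1.42 at day 19. That of SLC37A2 to SLC37A4 lay between -1.51 and -1.31 at day 6, 3.65 and 4.65 at day 16, and 2.85 and 4.78 at day 19. For SLC13A2 to SLC13A5 it was -11.29 to -9.66, -5.26 to -2.16 and -2.79 to 3.16, and for SLC26A7 to SLC26A3 it was -3.24 to -2.44, 7.19 to 8.04 and 3.37 to 5.78 on the same days. In these 4 pairs, and in those of SLC31A1 to SLC31A2, SLC44A4 to SLC44A2 and SLC46A3 to SLC46A1, no day 6 library overlapped with a later one. The smallest gap was that of SLC46A3 to SLC46A1, with -0.14 to 0.33 at day 6 and 0.80 to 1.91 at day 16. In that pair only SLC46A3 was called, and SLC46A1 had a higher mean on both later days than at day 6, so its ratio shows unequal and not opposite change.

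**Figure D4:**
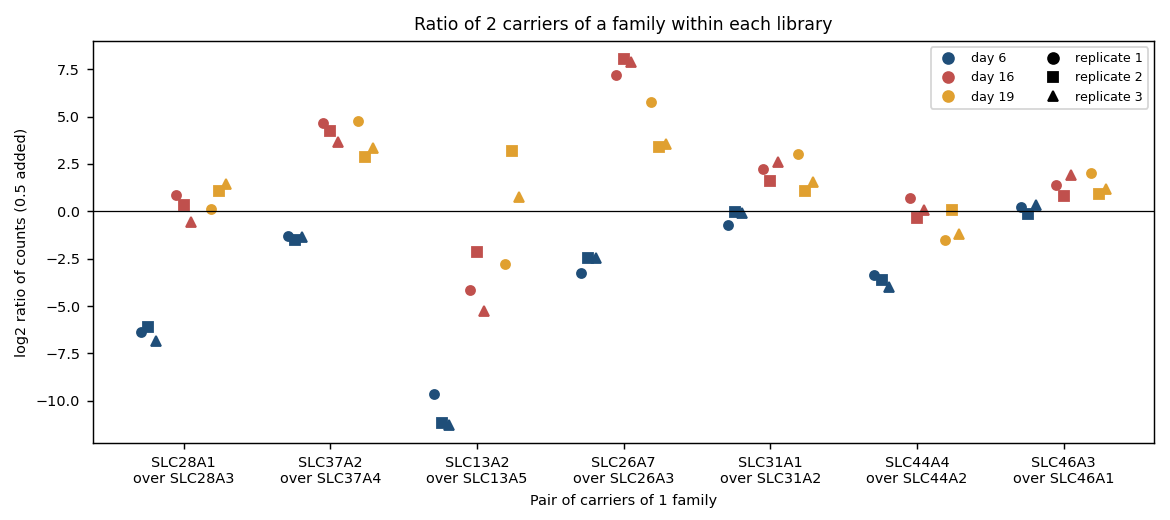
Log2 ratio of the counts of a pair of carriers of the same family within each library (0.5 added to each count), for 7 pairs chosen after their values were seen. Colours are days and symbols are replicates, and the ratio is not corrected for gene length. The day 6 points lie below all later points in each pair, and day 16 and day 19 overlap in all but the SLC26 pair.

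Between day 19 and day 16, 1 carrier was called with all libraries, while 21 (15.8%) were lower at day 19 without overlap, against 12% of all genes, and 6 (4.51%) higher, against 11.9%. Without day 19 replicate 1, 14 of 134 carriers (10.4%) were called higher and 41 (30.6%) lower, where 21.6% and 23.1% of all genes were. In either direction 41% of carriers and 44.7% of all genes were called, so the counts by group only describe where the calls lay. By group these were 8 lower and 2 higher of 20 zinc and manganese carriers, and 7 lower and 1 higher of 19 acid-base and anion exchangers. Of 16 bile acid and organic ion carriers, 4 were lower. The iron and copper (9 members), SLC16 (13) and cation-chloride (6) groups had 3 lower and 1 higher each. Choline carriers (4) and sodium-calcium exchangers (5) had 3 lower each, and phosphate (7) and nucleotide sugar carriers (6) 2 lower each. Vitamin carriers (9) had 2 lower and 2 higher, nucleoside carriers (5) 1 lower and 2 higher, and fatty acid carriers (5) 0 lower and 2 higher. The vesicular group (5) and the 1 carrier outside the groups had 1 higher each, and peptide carriers (4) had 0 called in this fit. With that library left out day 19 rests on 2 libraries, which resemble each other, and the spread is estimated mostly from the other days.

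**Figure D5:**
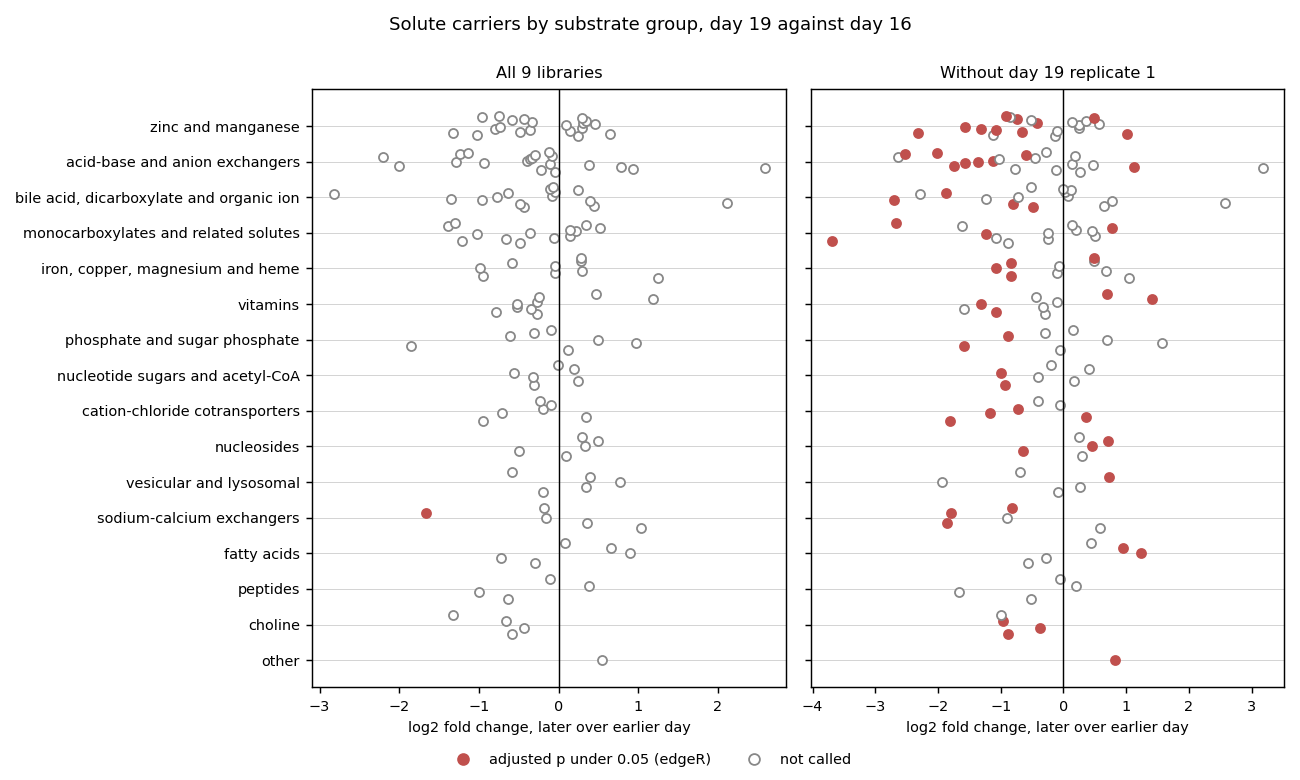
Log2 fold change of each carrier at day 19 against day 16 by substrate group (rows), with all 9 libraries (left) and without day 19 replicate 1 (right). Filled points have adjusted p under 0.05. On the left 1 carrier, SLC24A4, is filled, and on the right 55 are, 41 of them left of 0.

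The 70 tested carriers not covered by the naming rule had log2 changes between -2.70 (SLC34A3, adjusted p 0.0931) and 0.86 (SLC9A7, 0.586) at day 16 against day 6, between -1.39 (SLC16A6, 0.203) and 1.04 (SLC24A1, 0.334) at day 19 against day 16, and between -2.04 (SLC16A9, 0.0655) and 1.26 (SLC26A2, 0.237) at day 19 against day 6. SLC26A2, a sulfate carrier, stood at 102.5 CPM in day 19 replicate 1 and at 10 to 27.6 CPM in the other 8 libraries. Of the 70, edgeR called 1 at day 16 against day 6 (SLC15A4), 0 at day 19 against day 16 and 4 at day 19 against day 6, among them SLC30A9, SLC44A2 and SLC44A3. Those named are described above.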

How the data were processed

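Uterine poly(A) RNA was sequenced on an Ion Proton, per the series design text, after Trizol extraction and fragmentation with RNase III, per the labels' protocols. The deposited table gives raw read counts per gene, in whole numbers, for each sample. Which aligner, counter, genome build and annotation were used, and whether counting used strand, is not given in the sources used here, so reads shared between close relatives of a family, or between a gene and its antisense partner, could not be told apart. Gene symbols are those of the table. Its description of the SLC12A7 row is that of an uncharacterized locus, and a second symbol column gives SLC52A1 for the SLC52A2 row.

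Counts were tested in R 4.3.3 with edgeR 4.0.16: TMM scaling, filterByExpr on the day, and a robust quasi-likelihood fit to all 9 libraries with the day as its only term, leaving 16098 genes (common biological coefficient of variation 0.318). P-values were adjusted after Benjamini and Hochberg over every gene tested, with a threshold of 0.05, and the carriers were counted afterwards. The SE is the absolute log2 change divided by the square root of F, approximate where counts are few. For 1 to 3 counts on a day, the ratio of counts is given with an exact 95% interval. No libraries of a day agreed within sampling noise (lowest chi-square per degree of freedom 10.4). The calls were repeated with DESeq2 1.42.0, limma 3.58.1 (voom with sample weights), RLE and upper quartile scaling, no filter, a stricter one (1 CPM or more in 6 or more libraries), no robust estimation, only the days compared, the replicate number as a block, and each library left out. The test was checked on simulated counts that had the same spread for every gene and no library that stood apart. That check therefore does not cover the effect of day 19 replicate 1.

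Named carriers are, per comparison and direction, up to 12 called without overlap and with the largest change, plus the 34 carriers on a panel of 40 genes with a known role in uterus or epithelium, plus the member with the smallest p in the F test in each family with 3 or more members. This came to 63, and others are named where called. Partner and marker lists were set by hand. The carriers and the lists were chosen with earlier results of these data known. Individual results of some genes are not reported here.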

Additional observations from a re-analysis of the deposited data

How the results depend on the processing

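The counts of carriers called depended most on the tool and on single libraries. With limma voom and sample weights, 42 carriers were called at day 16 against day 6, 56 at day 19 against day 16, 78 at day 19 against day 6 and 86 among the 3 days, against 24, 1, 41 and 38 by edgeR. All 24, 1 and 41 carriers of the pairwise comparisons were among them. For day 19 against day 16, DESeq2 called 10 carriers, and the replicate block and the fit to only the 2 days called 0 each. Leaving out 1 library gave 13 to 35 carriers for day 16 against day 6 (13 without day 16 replicate 1, 35 without day 19 replicate 1), 0 to 55 for day 19 against day 16, 24 to 74 for day 19 against day 6 (24 without day 6 replicate 3) and 19 to 77 among the 3 days. The highest of each range came without day 19 replicate 1. Of the 24 carriers called at day 16 against day 6, 12 were called with each of the 9 libraries left out, as were 18 of the 41 called at day 19 against day 6. No named carrier called with all libraries changed the sign of its log2 change in that comparison, while 36 log2 changes of named carriers that were not called did so under some alternative. Their ranges with 1 library left out follow. Between day 16 and day 6 the change ran for SLC16A3 from -0.73 to 0.26, SLC23A1 from -0.12 to 0.58, SLC27A6 from -0.29 to 1.37, SLC29A1 from -0.05 to 0.14 and SLC30A1 from -0.21 to 0.31. It ran for SLC34A2 from -0.28 to 0.54, SLC35A3 from -0.15 to 0.09, SLC39A14 from -0.05 to 0.16, SLC39A8 from -0.50 to 0.09 and SLC4A4 from -0.61 to 0.01. It ran for SLC8A1 from -0.22 to 0.04 and SLC9A2 from -0.18 to 1.55. Between day 19 and day 16 the change ran for SLC16A3 from -0.05 to 0.74, SLC16A4 from -0.31 to 0.85, SLC17A5 from -0.35 to 0.01, SLC18A2 from -1.93 to 1.57 and SLC19A3 from -1.59 to 0.18. It ran for SLC20A1 from -0.05 to 0.27, SLC22A5 from -0.34 to 0.02, SLC27A6 from -0.63 to 1.21, SLC28A1 from -0.18 to 0.41 and SLC30A1 from -0.14 to 0.61. It ran for SLC31A1 from -0.15 to 0.11, SLC37A4 from -0.27 to 0.16, SLC39A14 from -0.42 to 0.59, SLC39A2 from -1.81 to 0.18 and SLC46A1 from -0.48 to 0. It ran for SLC8A1 from -0.82 to 0.11. Between day 19 and day 6 the change ran for SLC12A2 from -0.33 to 0.86, SLC16A1 from -0.01 to 0.62, SLC16A3 from -0.22 to 0.46, SLC18A2 from -0.69 to 2.55 and SLC19A3 from -0.81 to 0.80. It ran for SLC39A14 from -0.40 to 0.61, SLC46A1 from -0.14 to 0.23 and SLC8A1 from -0.93 to 0. Limma voom turned the sign with log2 changes of -1.56 for SLC18A2, -0.07 for SLC20A1, -0.08 for SLC30A1, 0.15 for SLC37A4 and -0.39 for SLC39A14 at day 19 against day 16, and -0.33 for SLC12A2, -0.04 for SLC16A1, -0.60 for SLC18A2, -0.82 for SLC19A3 and -0.35 for SLC39A14 at day 19 against day 6. Upper quartile scaling turned the sign with log2 changes of -0.02 for SLC39A14 at day 16 against day 6, and -0.05 for SLC16A3 at day 19 against day 6. Among these sign changes, those of SLC39A14 at day 19 without day 19 replicate 1 were the only ones past the threshold (log2 -0.42 against day 16 and -0.40 against day 6). Whether samples with the same replicate number share an animal or batch is not stated, and these few correlations cannot settle it. The correlations of deviations ran from -0.164 to 0.153 between same-numbered libraries of different days. Between differently numbered libraries of different days they ran from -0.134 to 0.2. A fit with that number as the replicate block called 22, 0, 35 and 30 carriers. RLE and upper quartile scaling moved the median over all genes by at most 0.065 in size (log2 -0.065) and gave 24 carriers each at day 16 and 41 and 44 at day 19 against day 6. Over the log2 changes of named carriers and all alternatives, 3044 kept their direction and side of the threshold, 137 lost and 125 gained the call, and 67 changed sign. SLC26A3, SLC22A2 and SLC16A4 had 1 or 2 counts on a day, which gives their ratios wide counting intervals. The cause of these dependences was not tested.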
